A study of Drosophila melanogaster with 28 samples.

Results

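The 200 transcripts with the strongest testis bias, selected on ribosome footprint levels of wild-type testis and body, were followed through a knockout of Mettl1 in Drosophila melanogaster. They were taken from 18851 transcripts retained from the deposited tables, of which 4052 reached a mean of 50 CPM, the counts scaled to a fixed library total, in the wild-type testis footprints of set 2, the second of 2 sets of testis samples. Among these 4052, the members are those with the highest ratio of mean wild-type testis CPM plus 1 to mean wild-type body CPM plus 1. CPM were computed over the retained transcripts of each library, without further scaling. The 4 footprint libraries used for this choice, 2 of wild-type testis in set 2 and 2 of wild-type body, therefore describe the members and test nothing about them. The 200 transcripts hold 183 groups of near-identical counts, and 14 of these groups have several transcripts, at most 3. Transcripts of a group may be isoforms or copies that share reads, and they are not independent.

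Ribosome profiling sequences the mRNA fragments that ribosomes protect, so a footprint count carries both the amount of an mRNA and the number of ribosomes on it. Footprints set against RNA-seq give translational efficiency, the ribosome occupancy per mRNA. In the fly testis most transcription ends around meiosis, and many transcripts for sperm assembly are stored and translated later, in differentiating spermatids. Mettl1 is the catalytic subunit of the enzyme that places 7-methylguanosine (m7G) on a subset of tRNAs.

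The testis samples came from Mettl1-KO males, for which the labels name the allele Mettl1KO1, and from wild-type (WT) males of the strain y1 w1118. Set 1 and set 2 each had 2 KO and 2 WT libraries of footprints and of RNA-seq. A sample held 600 pairs of testes from adults aged 2 to 3 days, dissected in cycloheximide, which holds ribosomes in place, at 100 µg/ml. The labels repeat the same allele and text for both sets, and the digit after the genotype in the testis titles was taken to number replicates. The digit may instead name a KO line, and the names in the deposit differ from the titles on this in set 2. Body had 2 libraries of each assay from KO1, from KO2 and from WT, and the labels repeat the text on dissected testes for these samples. Whether the bodies still contained testes, and the sex of the flies, are not given in the sources used here, so what a body value stands for is uncertain. No label says whether replicates came from separate dissections, so p-values measure the spread between these samples, which may be technical.

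Totals over the retained transcripts differed between assays. They were 410019 to 3386070 counts in set 1 footprints, 6732034 to 13217075 in set 2 footprints and 2033209 to 9936190 in body footprints. RNA-seq reached 11486631 to 17707128 counts in set 1, but 149745 to 209202 in set 2 and 49608 to 95749 in body. The files pair no transcript with a gene name, and 0 of the 200 members matched the reference table, so members are given by transcript ID or by rank and no gene function, sequence or position is given. The level of Mettl1 itself and the markers of testis and body cells are not analysed here, so the labels were not checked against them.

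By the choice itself, the members had a median of 197 CPM in WT testis of set 2 (50.6 to 1408), against 3.94 CPM in WT body (0.302 to 39.4). The ratio was 59.0 at the top of the list, 40.5 at rank 50, 36.9 at rank 100 and 33.5 at rank 200. It went on falling slowly beyond the list, to 27.4 at rank 500, 19.7 at rank 1000 and 3.89 at rank 2000. The last transcript inside had a ratio of 33.47 and the first outside had 33.45, so the list ends within a slope and not at a step. The transcript ranked first had 376 and 521 CPM in WT testis of set 2, against 5.69 and 7.55 CPM in WT body. The entry ranked second has the same count in every library. The 2 members with the most testis footprints, ranked 149 and 130 and adjacent in the files, had means of 1408 and 1384 CPM in WT testis of set 2, against 39.4 and 38.0 CPM in WT body.

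Members were listed with low values in the deposited length column, whose unit the files do not state. The median was 151 for members, against 413 for the other 3852 transcripts that reached 50 CPM. Of the members, 54 (27%) were listed under 100 and 14 (7%) at 500 or more, against 4.91% and 39.9% of the other transcripts. Levels per length were therefore spread more widely than CPM. The member ranked 166, with a length value of 47, had 2701 CPM per 100 units of length in WT testis of set 2, while the member ranked 118, with a length value of 303, had 18.6.

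The identity of the members depended on which testis set chose them. With WT testis of set 1 in place of set 2, 26 of the 200 transcripts were chosen again, and with a pseudocount of 5 in place of 1, 100 were. The ratio of WT testis of set 1 to WT body had a median of 24.2 over the members (11.3 to 48.5), a description only, because the WT body libraries chose the members for low values. WT footprint levels of members in set 1 and set 2, which share no library, had a Pearson r of 0.95 on the log2 scale over 200 members, and 0.91 over the other 3852 transcripts. Both correlations are across transcripts, which are not independent replicates.

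The tissue difference was then compared in libraries that the choice did not use. In footprints of KO testis of set 2 against the mean of both KO body lines, all 200 members were called higher and 0 lower at an adjusted p under 0.05 (edgeR quasi-likelihood F-test, Benjamini-Hochberg adjustment). Over all 16210 transcripts tested, 43.7% were called higher and 38.1% lower. The median member was higher by 5.45 on the log2 scale (lowest 4.08). These members passed the low-count filter through testis, where all 200 had at least 10 counts in each KO library, while 72 did in KO1 body and 43 in KO2 body. The sizes of the change thus rest on few body counts for most members, and the count is no support for the list. None of the 200 was lower at an unadjusted p under 0.05 in this test or in DESeq2. The summed share of the members was 3.18% and 2.94% of the counts in KO testis, against 0.0678% and 0.0785% in KO1 body and 0.0501% and 0.0633% in KO2 body. Testis and body groups did not overlap. Testis tissue and body were also separate samples with depths of their own, and preparation and tissue cannot be told apart.

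RNA-seq of set 2 and of body was shallow, and most members could not be tested in it. The members together took 0.793% and 0.790% of WT testis RNA-seq counts of set 2, against 0.571% and 0.538% of WT body counts. The ratio of the mean shares was 1.43, while for footprints of the same groups, which chose the members, it was 43.8. Per member, the ratio of WT testis CPM plus 1 to WT body CPM plus 1 in RNA-seq had a median of 6.44 and was above 1 for 157 of 200, against a median of 1.30 and 2120 of 3852 for the other transcripts. In WT body RNA-seq, 100 members had 0 counts in both libraries and 9 had at least 10 counts in each. Of the other 3852 transcripts, 961 had 0 counts in both. For such transcripts any testis count puts the ratio above 1, so the median ratio and the 157 rest partly on the low body depth. At 3 counts, the limit that a count of 0 allows, these libraries reach 50.2 and 60.5 CPM. The low-count filter left 25 members to test, of which 11 were called higher in WT testis and 13 higher in WT body. The median log2 change of these 25 was -1.36, toward body. Over the 2802 transcripts tested, 42.1% were called higher in testis and 42.9% lower. Without the filter 48 were called higher and 12 lower, where 2049 and 1619 of all 15839 transcripts tested were. With the filter and without WT testis replicate 1, the median log2 change was -1.95 over 16 members, and without WT testis replicate 2 it was -2.45 over 16. Without WT body replicate 1 it was 1.71 over 59 members, and without WT body replicate 2 it was 1.95 over 66.

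**Figure D1:**
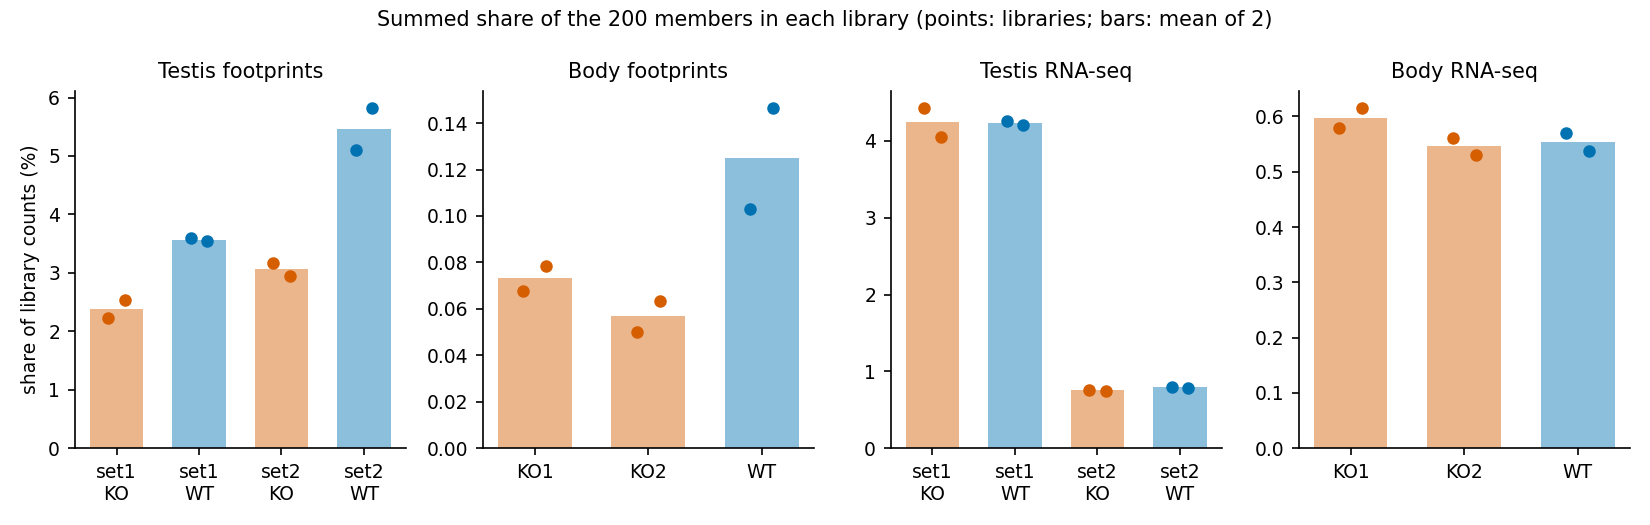
Summed share of the 200 members in the counts of each library (%), with KO groups left of WT; points are libraries and bars the mean of 2. In testis footprints of both sets, and in body footprints, each KO library lies below each WT library, while in RNA-seq the KO and WT shares of a set lie close together.

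The first question on the knockout was whether the members kept their ribosome footprints without Mettl1. In set 1, whose libraries had no part in the choice, their summed share was lower. It was 2.22% and 2.54% of footprint counts in KO testes, against 3.595% and 3.54% in WT testes. Both KO libraries lay below both WT libraries, and the ratio of the means was 0.667. With 1 transcript per group of near-identical counts the ratio was 0.686. Counting error is small beside this, since the 95% Wilson interval of the smallest library, KO replicate 1, ran from 2.18% to 2.27%. In footprints of bulk testes alone, fewer cells of a type, less RNA per cell and fewer ribosomes per mRNA cannot be told apart.

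Of the 200 members tested in set 1 footprints, 97 were called lower and 6 higher in KO testes (edgeR quasi-likelihood test, adjusted p under 0.05). Over all 10463 transcripts tested, 7.97% were called lower and 2.48% higher. Among the other transcripts that reached 50 CPM in WT testis, these shares were 14.6% and 3.45%. The median log2 change was -0.75 for members, -0.10 for the other transcripts of 50 CPM or more, and -0.00 over all tested. Both KO values lay below both WT values for 132 members (66.0%), against 30.3% of all transcripts tested, and above them for 24 members (12.0%), against 26.7%. DESeq2 called 68 lower and 2 higher, where 440 and 80 of all 10463 transcripts tested were. Without WT replicate 2 the members' median log2 change was -0.80, and 0.02 over all transcripts tested. Without KO replicate 1 these medians were -0.72 and -0.02.

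FBtr0079380, ranked 184 and listed with a length value of 58, was among the members that fell most. Its footprints were at 75.6 and 60.0 CPM in KO testes of set 1, against 649 and 697 CPM in WT testes. The groups were far apart, and the log2 change was -3.55 (SE 0.205, adjusted p = 0.000912 in edgeR). Its RNA-seq level was 1059 and 952 CPM in KO testes, against 1010 and 1003 CPM in WT testes. On these CPM, which carry no scaling beyond the library total, the groups overlapped. The fitted change of 0.17, which used a further scaling between libraries, was not called (adjusted p = 0.144 in edgeR). Its translational efficiency in set 1 fell by 3.77 on the log2 scale (adjusted p = 0.000108 in edgeR).

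FBtr0085177, ranked 118, had the largest fitted fall in set 1, but from low counts. It had 0 and 3 footprint counts in KO testes of set 1, which is 0 CPM, allowing up to 7.32 CPM, and 2.69 CPM, against 85 and 23 counts, or 25.1 and 28.6 CPM, in WT testes. The fitted change was -3.90 (SE 0.569, adjusted p = 0.00932 in edgeR), a value that depends on the prior count since 1 KO library had no count. Its RNA-seq level was 97.1 and 89.1 CPM in KO testes, against 118 and 120 CPM in WT testes, and the change of -0.18 was not called (adjusted p = 0.141 in edgeR). In set 2, with deeper footprints, it had 7.82 and 6.85 CPM in KO testes, against 54.1 and 58.4 CPM in WT testes.

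The 6 members that rose in set 1 footprints were also called higher in set 1 RNA-seq. FBtr0078824, ranked 22, had 290 and 296 footprint CPM in KO testes of set 1, against 64.97 and 49.7 CPM in WT testes, a log2 change of 2.11 (SE 0.173, adjusted p = 0.00156 in edgeR). Its RNA-seq level was 247 and 240 CPM in KO testes, against 93.3 and 96.5 CPM in WT testes, a change of 1.53 (adjusted p = 0.000468 in edgeR). FBtr0339513, ranked 183, had 290 and 406 footprint CPM in KO testes, against 89.2 and 84.4 CPM in WT testes, a change of 1.803 (adjusted p = 0.00369 in edgeR). Its RNA-seq level was 486 and 467 CPM in KO testes, against 313 and 295 CPM in WT testes. For both transcripts the KO and WT values did not overlap in either assay. Their translational efficiency changes of 0.53 and 0.93 were not called (adjusted p = 0.221 and 0.0832 in edgeR).

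The members' RNA did not show the fall seen in their footprints. Their summed share of set 1 RNA-seq was 4.44% and 4.06% in KO testes, against 4.26% and 4.21% in WT testes, so that the groups overlapped and the ratio of means was 1.002. In the same test 63 members were called higher and 41 lower, with a median log2 change of 0.11. Both KO values lay above both WT values for 93 members and below them for 68, against 37.2% and 39.9% of all 15585 transcripts tested. Over all 15585 transcripts tested, 21.9% were called higher and 20.1% lower. Of the members, 31.5% were called higher and 20.5% lower, against 30.9% and 28.2% of the other transcripts that reached 50 CPM in WT testis. Without WT replicate 1 the members' median log2 change was 0.11, and without WT replicate 2 it was 0.09. Without KO replicate 1 it was -0.004, and without KO replicate 2 it was 0.21.

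Footprint and RNA calls in set 1 combined in several ways. Of the 97 members with lower footprints, 47 were not called in RNA-seq, 28 were lower and 22 were higher. Of the 41 members with lower RNA, 28 also had lower footprints. Such pairs of calls were not counted among other transcripts, so nothing particular to the members is read from them. By direction alone, both changes were below 0 for 73 of 200 members, above 0 for 34 and opposite for 93. Among 3850 other transcripts of 50 CPM or more these were 1422, 1152 and 1276. Across the 200 members the log2 changes of footprints and RNA gave r = 0.31 (Pearson) and rho = 0.27 (Spearman), against 0.54 and 0.46 over 3850 other transcripts. A small group of members lost RNA strongly, which was not particular to members. The lowest log2 change in RNA was -3.59 among members and -5.57 among the other transcripts of 50 CPM or more. The member ranked 149 had 10.4 and 11.4 RNA-seq CPM in KO testes, against 129 and 120 CPM in WT testes, and 317 and 247 footprint CPM in KO testes, against 861 and 1029 CPM in WT testes. Its neighbour in the files, ranked 130, had 54.7 and 57.8 RNA-seq CPM in KO testes, against 156 and 144 CPM in WT testes. In both transcripts the RNA-seq groups did not overlap, and the log2 changes in RNA of -3.34 and -1.24 were called (adjusted p = 0.000468 and 0.000605 in edgeR).

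**Figure D2:**
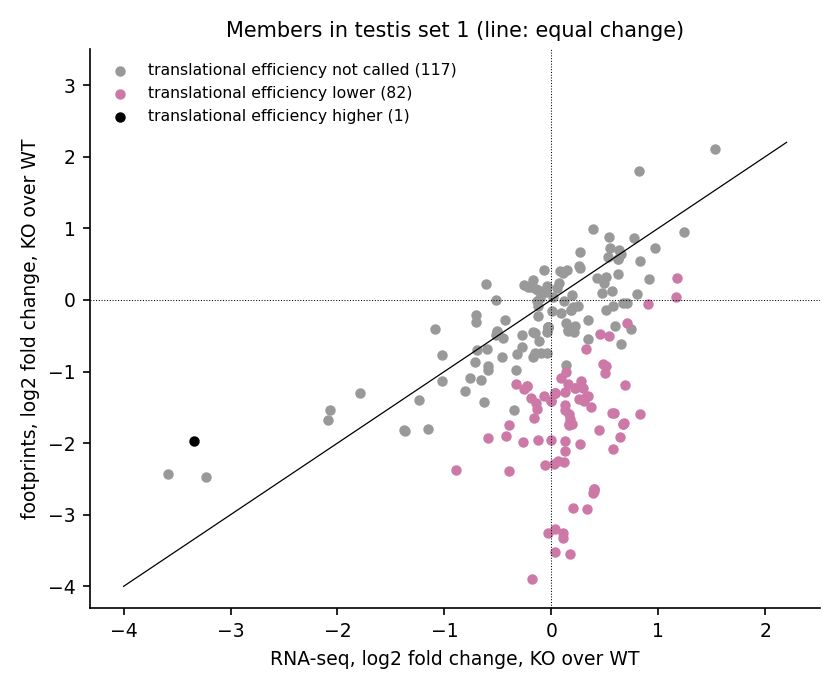
Log2 change of footprints against log2 change of RNA-seq for the 200 members in testis set 1, KO over WT, with 1 point per transcript coloured by its translational efficiency call; on the line both changes are equal. The 82 members called lower in translational efficiency lie below the line, most of them near an RNA-seq change of 0.

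Translational efficiency was tested by the term for assay by genotype in 1 model over the 8 libraries of set 1, which are the same libraries as above. In edgeR's quasi-likelihood test 82 members were called lower and 1 higher in KO testes. Over all 15746 transcripts tested, 4.26% were called lower and 0.292% higher, and among the other transcripts of 50 CPM or more in WT testis 12.2% and 0.467%. The median log2 change was -0.67 for members and -0.05 for those other transcripts. The 1 member called higher, ranked 149, had lost more RNA than footprints, with log2 changes of -3.34 and -1.97. Of the 82 called lower, 47 were not called in RNA-seq, 30 were higher and 5 were lower. The RNA change of the same libraries is subtracted in the efficiency term, so higher RNA itself lowers the efficiency. Nothing is therefore read from the 30 against the 5.

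These efficiency calls rest on both WT replicates. Without replicate 1 or replicate 2 of the set 1 WT, left out in both assays, 0 members and 0 other transcripts were called in edgeR, although 73 and 87 members were lower and 3 and 4 higher at an unadjusted p under 0.05. The 82 members kept their sign in both fits. In DESeq2, with all replicates, 93 members were lower and 4 higher, where 982 and 144 of all 7503 transcripts tested were.

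As plain levels, the median ratio of footprint CPM plus 1 to RNA-seq CPM plus 1 was 0.639 in KO testes and 0.871 in WT testes for members. For the other transcripts of 50 CPM or more it was 1.38 in KO testes and 1.11 in WT testes. The members thus stood below the other transcripts in both genotypes, and further below in the knockout. CPM are shares of a library, and a lower share of some transcripts raises that of others.

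**Figure D3:**
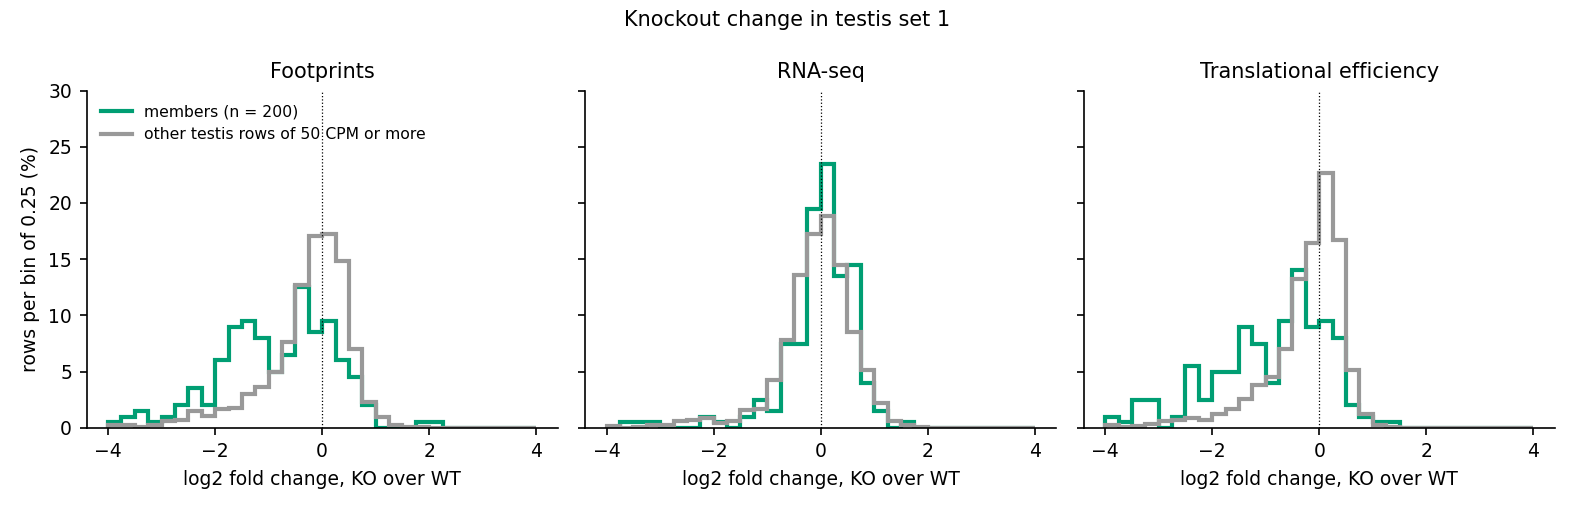
Share of transcripts (%) per bin of log2 change, KO over WT, in testis set 1 for footprints, RNA-seq and translational efficiency, with members in green and the other transcripts that reached 50 CPM in WT testis in grey; values beyond 4 are drawn in the last bin. Members extend to the left in footprints and translational efficiency, with medians of -0.75 and -0.67, and overlap the other transcripts in RNA-seq.

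The fall was graded along the testis bias and did not stop at the edge of the list. Among transcripts of 50 CPM or more, ordered by the same ratio, 48.5% of ranks 1 to 200 were called lower in set 1 footprints, 37.8% of the next 300 ranks, 28% of the following 500, 16.8% of the following 1000 and 6.87% of the last 2052. The median log2 changes in the same order were -0.75, -0.41, -0.26, -0.12 and -0.04. Translational efficiency was called lower for 41%, 31.3%, 29.4%, 13.3% and 4.68%. RNA-seq was called lower for 20.5%, 22%, 21.2%, 23.8% and 32.9%, a share highest in the last range. It was called higher for 31.5%, 40.7%, 45.6%, 39% and 21.9%, with median log2 changes of 0.11, 0.16, 0.22, 0.10 and -0.10. Higher RNA itself lowers the efficiency, as said above, so the efficiency shares also carry these RNA changes. The ordering came from set 2 and body, and the changes from set 1. The ranges of ranks also differed in listed length, with median values of 151, 243, 335.5, 488 and 432. Whether length has a part in the grading was not tested. When 200 transcripts were chosen with WT testis of set 1 instead, 99 of the 199 tested in set 2 footprints were lower and 29 higher, with a median of -0.43. These were 49.7% and 14.6%, against 14.3% and 10.04% of all 15254 transcripts tested, so both shares lay above the background. This second list was made after the values were seen, and set 2 had no part in its choice.

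**Figure D4:**
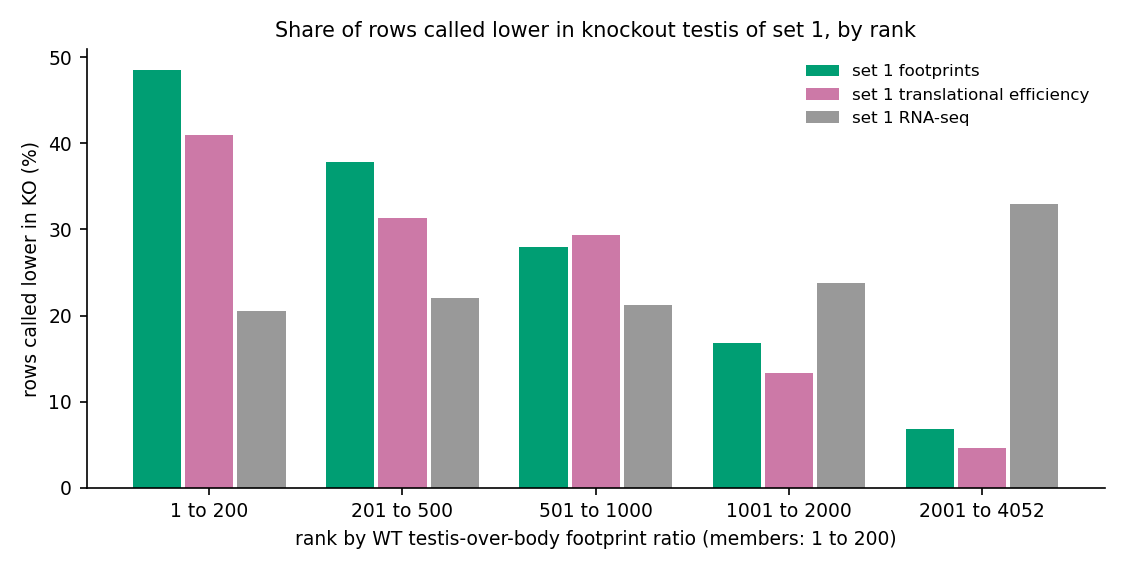
Share of transcripts called lower in KO testes of set 1 (%), by rank of the WT testis-over-body footprint ratio, for footprints, translational efficiency and RNA-seq; each group of bars is a range of ranks. For footprints the share runs from 48.5% among the members at the left to 6.87% in the last range, while for RNA-seq it lies between 20.5% and 32.9%.

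Within the list, the size of the fall differed between members. The 50 members at the top of the ratio had a median footprint change of -1.26 in set 1 and 36 were lower, while the next groups of 50 had medians of -0.42, -0.74 and -0.43 with 18, 25 and 18 lower. By RNA-seq level in WT testes of set 1, the median footprint change was -0.05 in the 50 members with the least RNA (7.53 to 74.5 CPM), -0.72 and -0.83 in the next groups of 50 and -1.27 in the 50 with the most (245 to 1013 CPM). In that order 13, 24, 24 and 36 members of 50 were called lower. The Spearman rho of the footprint change with WT RNA level was -0.33 over 200 members.

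By listed length the members differed less regularly, with a Spearman rho of 0.11 between footprint change and length value. Ordered by length value, successive groups of 50 members had median footprint changes of -1.12, -0.98, -0.38 and -0.72, and 30, 29, 16 and 22 were lower. Other transcripts of 50 CPM or more in the same ranges of length were lower in 10.6%, 11.3%, 14.7% and 15.2% of cases. In each range of length the share of members called lower was thus above that of the other transcripts.

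The members' footprints in set 2 were compared next, with the reservation that the set 2 WT libraries chose them, so that high WT values are built in. The summed share was 3.18% and 2.94% in KO testes, against 5.11% and 5.83% in WT testes, a ratio of 0.560. In edgeR 143 members were called lower and 12 higher, with a median log2 change of -0.92. Both KO values lay below both WT values for 164 members and above them for 20, against 33.6% and 31.6% of all transcripts tested. The background over 15254 transcripts was 14.3% lower and 10.04% higher, and nothing is read from the count. As a description under the same reservation, all 97 members called lower in set 1 were among the 143 lower in set 2, and all 6 called higher were among the 12 higher. Changes in set 1 and set 2 had a Pearson r of 0.93 over 200 members and 0.69 over 3851 other transcripts. KO values lay below WT values in both sets for 130 members (65%), where 18.9% of 10442 transcripts did so, and above in both sets for 14 (7%), where 15.4% did. Since the set 2 WT values chose the members, these counts add no support to those of set 1.

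The transcripts printed by ID were picked for KO values beyond both WT values in both sets, so their set 2 values only give the sizes. FBtr0079380 had 194 and 115 CPM in KO testes, against 1052 and 1407 CPM in WT testes. FBtr0078824 had 412 and 444 CPM in KO testes, against 96.8 and 112 CPM in WT testes. FBtr0339513 had 413 and 397 CPM in KO testes, against 127 and 129 CPM in WT testes.

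RNA-seq of set 2 gave little on the members. Their summed share was 0.762% and 0.746% in KO testes, against 0.793% and 0.790% in WT testes, far under their 4.06% to 4.44% in set 1 RNA-seq. Both KO values lay below both WT values, with a ratio of means of 0.953. The low-count filter left 46 members, of which 3 were called higher and 4 lower in edgeR, against a background of 10.1% and 10.2% of 2969 transcripts. DESeq2 called 0 members, with 0 higher and 2 lower at an unadjusted p under 0.05. Across 200 members, WT levels of RNA-seq in set 1 and set 2 had a Pearson r of 0.65 on the log2 scale, and WT footprints and RNA-seq had 0.67 in set 1 and 0.25 in set 2.

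In body, the footprints of the members took a small share of each library. The summed share was 0.0678% and 0.0785% in KO1 and 0.0501% and 0.0633% in KO2, against 0.103% and 0.147% in WT. Each KO library lay below each WT library, and the ratios of the means were 0.586 for KO1 and 0.454 for KO2. The WT body libraries are shared by both lines and had a part in the choice of members, which favoured low WT body values. The filter left 138 members to test, many of them through WT. In WT body 111 members had at least 10 counts in each library, against 72 in KO1 and 43 in KO2 (of 200). The calls are therefore a description, and nothing is read from their number. In edgeR 29 were called lower and 2 higher in KO1, against a background of 2.13% and 1.02% of 13840 transcripts. In KO2 59 were lower and 1 higher, against 2.86% and 1.71%. DESeq2 called 16 lower in KO1 and 29 lower in KO2, where 168 and 225 of all 13840 transcripts tested were. The median log2 changes of the 138 were -0.64 and -1.19. Without WT replicate 2 the median log2 changes of the members tested were -0.39 in KO1 and -1.03 in KO2. Without WT replicate 1 they were -0.78 and -1.27. Over all transcripts tested these medians were 0.01 and 0.01, and -0.01 and 0.003. Without KO1 replicate 1 the members' median was -0.60 in KO1, where it was -0.005 over all transcripts tested. Without KO2 replicate 1 it was -0.99 in KO2, where it was -0.01 over all.

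Body changes are set beside those of testis set 1, with which body shares no library, as a description across members. The Pearson r was 0.91 for KO1 and 0.91 for KO2 over 138 members, against 0.62 and 0.55 over 3600 other transcripts of 50 CPM or more. All 29 members called lower in KO1 body, and 56 of the 59 called lower in KO2 body, were among the 97 called lower in testis set 1. The body calls carry the reservation given above, and the same overlap was not counted over all transcripts. Nothing is read from it. FBtr0079380 had 1.19 and 9.82 CPM in KO1 body and 1.82 and 1.48 CPM in KO2 body, against 28.2 and 42.6 CPM in WT body. FBtr0078824 had 8.93 and 9.14 CPM in KO1 body and 8.11 and 10.3 CPM in KO2 body, against 1.35 and 1.41 CPM in WT body. Neither line overlapped WT for these transcripts.

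Body and testis levels of the members lay in a narrow range of ratios, which the choice of members by such a ratio in WT favours. Over 200 members, log2 footprint levels of KO1 body and KO testis of set 2 had a Pearson r of 0.93, and those of KO2 body 0.91, and 0.38 and 0.37 over the other 3852 transcripts, whose WT ratios spread far more widely by the same choice. Per transcript, the ratio of KO testis to KO1 body had a median of 30.04 (5.90 to 65.9), and that to KO2 body a median of 36.9 (5.87 to 81.3). The part that testis tissue or testis RNA in the body samples may have in these values was not tested.

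**Figure D5:**
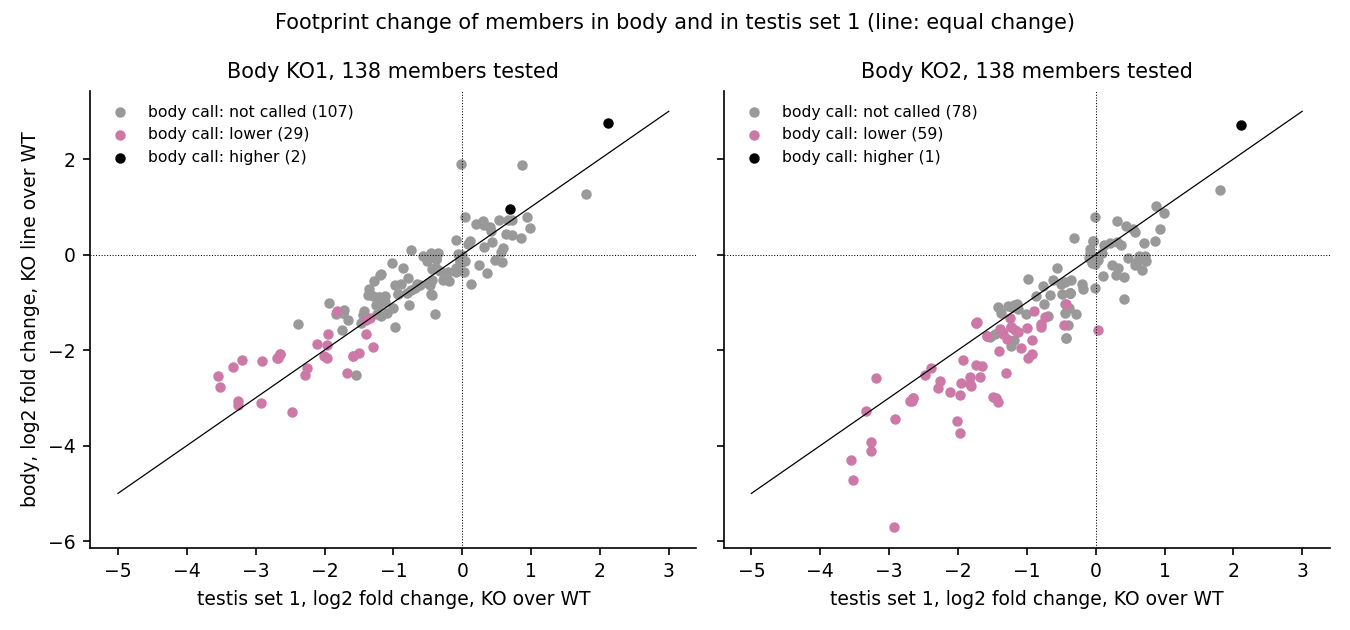
Log2 change of footprints in body KO1 (left) and KO2 (right) against WT body, plotted over the change in testis set 1, for the 138 members tested in body; points are transcripts coloured by their body call and the line marks equal change. The points run along the line in both panels, with Pearson r of 0.91 and 0.91, and in KO2 most of them lie below it.

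Body RNA-seq of the members was too shallow for a transcript-wise comparison. Their summed share was 0.579% and 0.616% in KO1 and 0.562% and 0.531% in KO2, against 0.571% and 0.538% in WT. Both WT values lay within the range of the KO values, and no difference between the genotypes was detectable at this depth.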

How the data were processed

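The deposited tables list 34703 transcripts per library with 1 whole-number count each, and a number per transcript that was used as a length without a stated unit. Per the submitters' processing notes CASAVA 1.8, STAR 2.7.0a and dm6 were used. The counter, its use of strand and the treatment of reads with several matches are not given in the sources used here. Footprint libraries used preadenylated linkers and in vitro transcription, and RNA-seq the SEQuoia Express kit, per the labels.

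From these counts, the 30340 transcripts with a length value were taken in file order, and a transcript was dropped where its summed counts lay within 5% of the last one retained. This left 18851 transcripts. The rule can join unlike neighbours, and 60 transcripts were dropped next to members. Groups of near-identical members lie within 50 lines and differ by at most 0.1 of their counts. The members and all lists were chosen with earlier results of these data known.

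Tests used edgeR 4.0.16 in R 4.3.3 on the counts as deposited, with TMM scaling, filterByExpr at a minimum count of 10, the quasi-likelihood F-test and Benjamini-Hochberg adjustment over all transcripts tested, called at an adjusted p under 0.05. SE is the log2 change over the square root of F. Counts of transcripts whose KO values lay beyond both WT values used CPM with TMM scaling. Printed CPM and shares have no such scaling. Each testis set was fitted alone and body with its 3 groups together. The script was tested on simulated data. Alternatives were DESeq2 1.42.0, its size factors within edgeR, other filters, TMM without members, uncollapsed transcripts, a replicate block, leaving out each replicate and, added after the values were seen, 1 transcript per group and a list chosen with set 1. With 2 against 2 libraries an exact permutation test cannot go below 0.333, so single sums have no test. Intervals cover counting error only, since no molecular identifiers are stated. Transcripts printed by ID are the 2 with the largest rise and the 2 with the largest fall among members called in set 1 footprints whose KO values lay beyond both WT values in both sets, of 6 that rose and 97 that fell. The members with the highest ratio, the highest level, the extreme efficiency changes and those at the edge are given by rank. Plots were made with matplotlib 3.10.9.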

Additional observations from a re-analysis of the deposited data

Results flagged for a closer look

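The member ranked 199 differed between KO and WT testes in opposite directions in the RNA-seq of the sets. In set 1 it had 464 and 422 CPM in KO testes, against 407 and 422 CPM in WT testes, and the KO mean was higher by 28.7 CPM. In set 2 it had 23.9 and 13.4 CPM in KO testes, against 33.4 and 37.5 CPM in WT testes, a mean difference of -16.9 CPM. The set 2 values rest on 5 and 2 counts in KO testes, against 6 and 6 counts in WT testes. The difference between the sets was not tested. In footprints its direction was the same in both sets, with 124 and 126 CPM in KO testes, against 424 and 450 CPM in WT testes of set 1.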

How the results depend on the processing

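For members described by their own test, no setting that was run reversed a set 1 change called in either fit. Changes called in neither fit, and those in set 2 or body, are not covered by this statement. Relative to the counts in the text, DESeq2 gave 2 members higher in set 1 footprints, 4 higher in set 1 efficiency, 0 higher and 0 lower in set 2 RNA-seq, 1 higher and 16 lower in KO1 body and 29 lower in KO2 body. Over all transcripts tested DESeq2 gave 112 higher and 181 lower of 2969 in set 2 RNA-seq. In body it gave 114 higher and 168 lower in KO1, and 225 lower in KO2, of 13840. Without the low-count filter there were 0 higher and 2 lower in set 2 RNA-seq, 5 higher in KO1 body and 2 higher in KO2 body. In WT testis RNA-seq against body 48 were higher. Over all transcripts tested 255 were higher and 377 lower of 16019 in set 2 RNA-seq. In body 288 were higher in KO1 and 387 in KO2, of 18437. With a mean of at least 50 counts there were 15 higher in set 1 footprints, 8 higher in set 1 efficiency, 1 higher and 8 lower in KO1 body and 0 higher and 9 lower in KO2 body. Over all transcripts tested 377 of 5206 were higher in set 1 footprints and 226 of 5193 in set 1 efficiency. In body 82 were higher and 146 lower in KO1, and 125 and 161 in KO2, of 9031. The filter at 50 counts left no member in either set 2 RNA-seq comparison. The cause of these moves was not tested, beyond the fewer members that stricter filters left.

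Same-numbered libraries were not taken as pairs. Their deviations had an r of -0.12 in set 1 footprints, 0.06 in set 1 RNA-seq, -0.29 and -0.27 in set 2, and 0.10 and 0.16 in body. With the replicate block, 2 members were higher and 48 lower in set 1 footprints, where 43 and 278 of all 10463 transcripts tested were. In set 2 RNA-seq 6 of 46 members were higher, where 372 of all 2969 transcripts tested were. The block moved no other count by over 1.5 times.

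Leaving out 1 replicate at a time, with the lone sample assumed to vary like the other groups, gave 2 to 16 higher and 61 to 100 lower in set 1 footprints, 13 to 108 and 18 to 59 in set 1 RNA-seq, and 0 to 2 and 0 to 96 in set 1 efficiency. In set 2 it gave 3 to 14 and 113 to 147 in footprints, and 0 to 3 and 0 to 2 in RNA-seq. In body footprints it gave 0 to 5 and 6 to 39 for KO1, and 1 to 2 and 13 to 67 for KO2. For KO testis against body it gave 200 to 200 and 0 to 0, and for WT RNA-seq of testis against body 3 to 23 and 6 to 10. The calls over all transcripts tested also moved between these fits, so nothing particular to the members is read from the ranges of calls. The members' median log2 change lay between -0.87 and -0.72 in set 1 footprints, where it was -0.02 to 0.03 over all transcripts tested. In set 1 RNA-seq it lay between -0.004 and 0.21 for members. The list itself shared 147 to 178 members. In set 2 footprints the 3 came without WT replicate 1, and in testis RNA-seq against body the 23 came without body WT replicate 2 and the 6 without body WT replicate 1.

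The list shared 100 members with that of a pseudocount of 5 and 26 with that of set 1. The set 1 list gave 29 higher in set 2 footprints, 4 higher in KO1 body and 4 higher in KO2 body. With 1 transcript per group there were 2 lower in set 2 RNA-seq. Depth limits the RNA-seq of set 2 and body most.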
